A study of Mus musculus with 8 samples.

Results

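Endothelins, norepinephrine, acetylcholine and oxytocin are contraction and transport signals of the oviduct, and 9 genes of these signals were examined on GD2. They are the ligands Edn1 and Edn3, the converting enzyme Ece1, the endothelin receptors Ednra and Ednrb, the oxytocin receptor Oxtr, the adrenergic receptors Adra1a and Adra1b, and the muscarinic receptor Chrm3. Every noncontrol probe whose gene name in the array files is one of these 9 was taken, which gave 19 of 41174 probes, and 9 of 27962 gene names. Edn1 had 1 probe, Ednra had 4, and each of the other 7 genes had 2.

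The control mice were CD-1 females injected subcutaneously with corn oil on PND1–PND5. The Gen-treated mice were CD-1 females injected on the same days with the phytoestrogen genistein (Gen), at 50 mg/kg/day in corn oil. Mice of both groups received hormones to induce ovulation at 6–8 weeks of age, were mated, and were euthanized on GD2, 48 hr after hCG, so all of the values come from hormone-stimulated, mated females of an outbred stock. Embryos were removed and the pair of oviducts of 1 mouse gave 1 RNA sample, with 4 mice in each group and 1 single-dye (Cy3) Agilent array per mouse.

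In smooth muscle, endothelin is first cut from its precursor by a converting enzyme, and the peptide then acts on receptors of the muscle or of the vessel lining. Ednra, Oxtr, Chrm3 and the Adra1 receptors all couple to the Gq protein, which raises calcium in the cell through phospholipase C and so leads to contraction. Ednrb of endothelial cells is best known for the release of relaxing factors. The oviduct wall carries adrenergic nerves, which are densest in the isthmus and act on the transport of embryos.

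Signals are Feature Extraction processed signals, scaled so that the 75th percentile is at 1 level on all arrays, and group levels are means on the log2 scale. They compare mice at the same probe, never 1 gene with another. The p-values come from limma, adjusted over 41173 tested probes, and measure the spread between the 4 mice of each group, and the exact permutation tests are 2-sided, with 0.0286 as the smallest p that 4 arrays against 4 allow. Each control array had 25391–28949 probes well above background, and each Gen array 29539–31486. The lowest signal that counted as well above background averaged 39.8 over the control arrays and 25.8 over all 8 arrays, so it was lower on the Gen arrays. At a dim probe, like signals could thus count as above background after Gen but not in controls. The 4 control arrays shared 1 slide and the 4 Gen arrays another, so treatment and slide cannot be told apart in any result given here. Markers of the labeled tissue were present: Ovgp1, the oviductal glycoprotein of secretory cells, Foxj1 of ciliated cells, and all 14 smooth muscle genes listed were well above background on all 8 arrays. In whole oviducts, fewer cells of a type and less RNA per cell cannot be told apart. A gene list of granulosa and steroidogenic cells had a summed signal of 9427–16318 in controls but 18434–59713 after Gen.

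Of the 9 genes, 2 were lower in Gen-treated mice at their brightest probe, the adrenergic receptor Adra1b and the ligand Edn3, and no other gene passed the test at its brightest probe. Adra1b fell from a signal of 2110 to 663 and Edn3 from 87.0 to 42.9. For Oxtr and Chrm3 the mean was higher in Gen-treated mice, but neither passed the test at its brightest probe. The remaining 5 genes, including Ece1 and Ednra, had log2 fold changes from -0.14 to 0.19. Among the brightest probes 6 of 9 had a positive log2 fold change, with a median of 0.06, beside a median of -0.06 over all tested probes and -0.01 over the 24947 probes that exceeded background on every array.

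Counted by probe, 3 of the 19 had an adjusted p under 0.05, 1 higher (Chrm3, a dim probe) and 2 lower (Edn3 and Adra1b). Over all 41173 probes this share was 16.2%, with 2.17% higher and 14.0% lower in Gen-treated mice, and among those that exceeded background on every array it was 4.37%, with 1.92% higher and 2.44% lower. Most calls over all probes lay in the dimmest ones, since of the 7855 probes well above background on no array 63.6% were called lower. Of the 19 probes, 11 were well above background on all 8 arrays, and 2 of these 11 were called. When testing was limited to probes detected above background throughout the control or the Gen group, 0 of the 15 remaining probes passed in limma, 3 had an unadjusted p under 0.05, and 1.11% of all probes so tested were called. With the filter set without regard to group, at least 4 of the 8 arrays, 0 of 16 passed, 4 had an unadjusted p under 0.05, and 0.900% of all were called. The groups did not overlap at 3 of the 19 probes (Edn3 probe 1, Adra1b probe 2 and Chrm3 probe 2), where 22.5% of all probes and 12.4% of those well above background on all 8 arrays did not overlap.

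**Figure D1:**
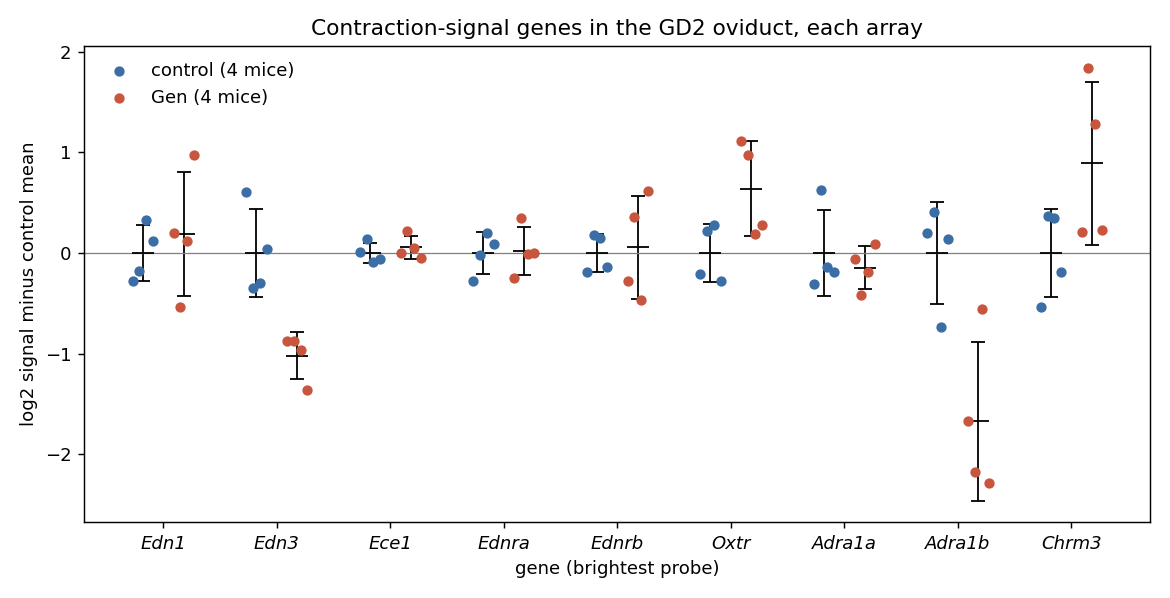
Log2 signal of the brightest probe of each of the 9 genes on each of the 8 arrays, as the difference from the control mean of that probe (y axis, log2 units). Points are mice, horizontal marks are group means and bars are 1 SD (n = 4 per group); Edn3 lies below all controls on all 4 Gen arrays, and Adra1b does so on 3 of them.

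Of the ligands, endothelin 1, a potent constrictor made mainly by endothelial cells, had a highly variable message. The Edn1 signal was 2670, 2866, 4067 and 3517 in control mice 1 to 4 and 3710, 2235, 3515 and 6363 in Gen mice 1 to 4. The highest and the lowest value were both from Gen-treated mice, and the groups overlapped. The log2 signal was 11.66 ± 0.28 (SD, n = 4) in controls and 11.85 ± 0.62 (SD, n = 4) in Gen-treated mice, which differ by a log2 fold change of 0.19 (adjusted p = 0.733, SE 0.31, 95% interval -0.51 to 0.89). Without Gen replicate 4 the log2 fold change was -0.07, so its direction rested on that mouse. The probe lies at chr13:41748495-41748554 on the plus strand of mm7, the build of the array design.

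Edn3 encodes endothelin 3, the isoform that binds Ednrb much more strongly than Ednra. At its brighter probe (probe 1) the signal was 133, 68.2, 71.0 and 89.1 in control mice 1 to 4 and 47.5, 47.4, 44.6 and 33.8 in Gen mice 1 to 4. All 4 Gen-treated mice were below all 4 controls, and the probe was well above background on all 8 arrays. The log2 signal was 6.44 ± 0.44 (SD, n = 4) in controls and 5.42 ± 0.23 (SD, n = 4) in Gen-treated mice. Edn3 was thus 2.03-fold lower at this probe, with a log2 fold change of -1.02 (adjusted p = 0.0244, SE 0.23, 95% interval -1.56 to -0.48, exact permutation p = 0.0286). The direction was the same under each alternative tried, from -1.15 to -0.67 on the log2 scale over those with all 8 arrays at this probe. The adjusted p was 0.0714 without the dim probes, and of the 8 fits that each left out 1 array, it stayed under 0.05 in 3. It was 0.0591 without control replicate 1, and 0.0633, 0.0675, 0.0608 and 0.0503 without Gen replicates 1, 2, 3 and 4.

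The other Edn3 probe (probe 2) gave a different result. Its signal was 120, 53.3, 43.1 and 51.1 in control mice 1 to 4 and 38.6, 59.7, 59.5 and 62.2 in Gen mice 1 to 4. Control mouse 1 was high and Gen mouse 1 was low, and the other 6 values lay close together. The log2 fold change was -0.18 (adjusted p = 0.768, SE 0.33). The difference between the log2 fold changes of probes 1 and 2, computed after the values were seen, was -0.84 (exact permutation p = 0.0571), and with the mean of both probes the log2 fold change was -0.60 (limma adjusted p = 0.171), so the call depended on the probe. The probes are 22608 bases apart in the array design, at chr2:174505256-174505315 and chr2:174527864-174527923, plus strand, mm7. A stretch of each is shown because the probes disagree. Capitals mark the letters AATAAA, the usual polyadenylation signal. On the printed strand these letters occurred in 2 of the 19 probes (Edn3 probe 2 and Ednrb probe 2) and in 4.78% of all 41174 probes, and on the opposite strand in 1 of the 19 and in 4.25% of all. The annotation of mm7 was not used here, so whether a probe lies in an exon or a UTR is not stated.
Edn3 probe 1, bases 1–30 of 60: ctcaggcagcgacaggactcgaaagctgta
Edn3 probe 2, bases 14–43 of 60: agtcaaatgcatAATAAAagaaaatctaaa

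The ligands were also set against each other, as the difference of their log2 fold changes. It was 1.21 between Edn1 and Edn3 (exact permutation p = 0.0571, adjusted p = 0.143 over 5 pairs of members), which did not pass the test. Edn2, the other endothelin, had signals of 507 and 405 in the 2 groups, a log2 fold change of -0.32 (adjusted p = 0.430, SE 0.24).

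Ece1, the enzyme that releases active endothelin from its precursor, was the most even of the 9 genes between mice. Its signal was 39059, 42661, 36281 and 37172 in control mice 1 to 4 and 38771, 45078, 40106 and 37442 in Gen mice 1 to 4. The groups overlapped almost fully, with a log2 fold change of 0.06 (adjusted p = 0.790, SE 0.11, 95% interval -0.20 to 0.31). This probe lies at chr4:137343591-137343650, plus strand, mm7. The other probe of Ece1, designed on a separate cDNA, was well above background on no array, and no fold is given for it.

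The endothelin receptors did not pass the test at any of their 6 probes. Ednra, the receptor of muscle cells, had a signal of 12666, 15221, 17724 and 16425 in control mice 1 to 4 and 12964, 19526, 15261 and 15368 in Gen mice 1 to 4. The groups overlapped, and both the lowest control and the lowest Gen mouse were mouse 1. The log2 signal was 13.91 ± 0.21 (SD, n = 4) in controls and 13.93 ± 0.24 (SD, n = 4) in Gen-treated mice, which differ by a log2 fold change of 0.02 (adjusted p = 0.952, SE 0.16, 95% interval -0.36 to 0.40). Its 3 other probes, all between chr8:76201434 and chr8:76210664 on the minus strand, gave log2 fold changes of 0.32, -0.01 and 0.31, with adjusted p from 0.402 to 0.979. The group means at these probes were 469 and 585, 103 and 102, and 38.7 and 47.8 in controls and Gen-treated mice. The last of these exceeded background in 2 of the 4 controls and in all 4 Gen-treated mice, with a higher cut-off on the control arrays on average.

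Ednrb, found on endothelial cells and some muscle, had more spread in Gen-treated mice at its brighter probe. The signal was 532, 684, 674 and 551 in control mice 1 to 4 and 499, 777, 440 and 930 in Gen mice 1 to 4. The 4 controls lay inside the range of the Gen-treated mice, whose log2 SD was 0.51 against 0.19 in controls, a difference in spread that was not tested. This gave a log2 fold change of 0.06 (adjusted p = 0.908, SE 0.25, 95% interval -0.52 to 0.64). At the other probe, 1763 bases away, the signal was 479, 671, 526 and 351 in control mice 1 to 4 and 406, 495, 238 and 359 in Gen mice 1 to 4. There it was -0.45 (adjusted p = 0.332, SE 0.27), of opposite sign. The difference of log2 fold changes between Ednra and Ednrb was -0.04 (exact permutation p = 0.886), and its sign turned with quantile normalization and without control replicate 4 or Gen replicate 4.

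Adra1b, an alpha-1 adrenergic receptor through which norepinephrine contracts smooth muscle, had the largest decrease of the 9 genes. At its brighter probe the signal was 2417, 2797, 1266 and 2317 in control mice 1 to 4 and 664, 468, 1436 and 434 in Gen mice 1 to 4. Gen mice 1, 2 and 4 were far below every control, but Gen mouse 3 was above control mouse 3, so the groups overlapped. The log2 signal was 11.04 ± 0.50 (SD, n = 4) in controls and 9.37 ± 0.79 (SD, n = 4) in Gen-treated mice. Adra1b was thus 3.18-fold lower, a log2 fold change of -1.67 (adjusted p = 0.0286, SE 0.41, 95% interval -2.62 to -0.72, exact permutation p = 0.0571). The direction was the same under each alternative tried, from -1.70 to -1.43 on the log2 scale over those with all 8 arrays at this probe. The adjusted p was 0.0878 without the dim probes, and of the 8 fits that each left out 1 array it stayed under 0.05 only without control replicate 3 (log2 fold change -1.92, adjusted p = 0.0243). Without the other control replicates it was 0.0707, 0.0743 and 0.0569, and without Gen replicates 1 to 4 it was 0.0664, 0.0766, 0.0603 and 0.0725.

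The second Adra1b probe had the same direction. Its signal was 51.1, 81.4, 40.2 and 69.7 in control mice 1 to 4 and 25.4, 20.9, 33.5 and 4.33 in Gen mice 1 to 4. Here all 4 Gen-treated mice were below all 4 controls, and 3 arrays of each group were well above background. The log2 fold change was -1.81 (SE 0.61), which did not pass the test (limma adjusted p = 0.0883, exact permutation p = 0.0286), and without Gen replicate 4, the lowest value, it was -1.16 with an adjusted p of 0.0365. The probes differed by 0.14 in their log2 fold changes (exact permutation p = 0.857), but this likeness in size depended on the processing. After normexp background correction the log2 fold changes were -1.61 at probe 1 and -0.74 at probe 2 (limma adjusted p = 0.0783 and 0.0485). With a floor at a signal of 25.8 they were -1.67 and -1.08 (limma adjusted p = 0.191 and 0.137). They lie 60067 bases apart, at chr11:43732065-43732124 and chr11:43792132-43792191, minus strand, mm7. Both are shown because they cover distant parts of the same gene. The second can be read in all 3 frames without a stop codon, which does not decide whether it is coding.
Adra1b probe 1, bases 1–30 of 60: caatgctggccctttgatagggtcggaaaa
Adra1b probe 2, bases 1–60: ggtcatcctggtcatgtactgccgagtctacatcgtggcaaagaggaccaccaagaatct

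The mice that overlapped for Adra1b were also read in the granulosa and steroidogenic list. The summed signal of that list was 10010, 9877, 16318 and 9427 on control arrays 1 to 4 and 59713, 37978, 18434 and 23633 on Gen arrays 1 to 4. Control mouse 3 thus had the highest list signal of the controls and the lowest Adra1b, and Gen mouse 3 had the lowest list signal of the Gen-treated mice and the highest Adra1b. These 2 mice were picked by their Adra1b values, and the other Gen-treated mice did not keep this order. Gen mouse 1, with the highest list signal, had an Adra1b signal of 664, above Gen mice 2 and 4. Gen mouse 4, whose list signal was the next lowest after Gen mouse 3, had the lowest Adra1b, 434. Of the 8 genes of the list detected above background throughout the control or the Gen group, 8 had a positive log2 fold change, with a median of 1.19. Some of the 8 met this filter only in Gen-treated mice, which favors positive values in the count and the median. Cyp11a1, the enzyme that begins steroid synthesis, had a control signal of 546 and rose to 11796 (4.43 on the log2 scale, adjusted p = 0.0236, SE 0.96). Lhcgr, the luteinizing hormone receptor, was also called (adjusted p = 0.0292). Lhcgr and Amh, the latter not called, stood well above background in every Gen-treated mouse but in no control, where the cut-off for background was higher on average. Lhcgr and Amh are named here after their values were seen. The part of these cells in the Adra1b result was not tested.

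Adra1a, the alpha-1 receptor found in many genitourinary muscles, did not follow Adra1b at its brighter probe. Its signal was 60.5, 116, 67.8 and 65.6 in control mice 1 to 4 and 71.7, 55.9, 65.4 and 79.5 in Gen mice 1 to 4. Apart from control mouse 2, the 8 mice were within a narrow range. The log2 fold change was -0.14 (adjusted p = 0.724, SE 0.22, 95% interval -0.66 to 0.37). The difference of log2 fold changes between Adra1a and Adra1b was 1.53, but it did not pass the test (exact permutation p = 0.0571, adjusted p = 0.143 over 5 pairs). The second Adra1a probe was well above background on no array, and no fold is given for it. Adra1d, the third receptor of this subfamily, had signals of 217 and 161 (-0.43 on the log2 scale, adjusted p = 0.259, SE 0.22).

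Oxtr, the receptor through which oxytocin contracts smooth muscle, was higher on average in Gen-treated mice at both of its probes without passing the test. At probe 1 the signal was 89.3, 120, 125 and 85.1 in control mice 1 to 4 and 224, 202, 118 and 126 in Gen mice 1 to 4. Gen mice 1 and 2 were above all controls, and Gen mice 3 and 4 were close to the upper controls. Oxtr had a log2 fold change of 0.64 (adjusted p = 0.141, SE 0.25, 95% interval 0.06 to 1.23, exact permutation p = 0.114). At probe 2 the signal was 21.6, 43.2, 48.8 and 36.6 in control mice 1 to 4 and 84.1, 90.7, 39.2 and 39.4 in Gen mice 1 to 4. The same Gen mice 1 and 2 were high there. The probe exceeded background in 2 controls and in all 4 Gen-treated mice, with a higher cut-off on the control arrays on average. The log2 fold change was 0.71 (adjusted p = 0.268, SE 0.37), and the difference between the probes was -0.06 (exact permutation p = 0.83). After normexp background correction the log2 fold changes were smaller, 0.29 at probe 1 and 0.11 at probe 2 (limma adjusted p = 0.415 and 0.762).

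Gen mice 1 and 2, which were high for Oxtr, also had the highest summed signals of the granulosa and steroidogenic list, and the part of those cells in the Oxtr values was not tested. Oxt, the gene of the hormone itself, had mean signals of 131 without and 94.8 with Gen (-0.47 on the log2 scale, adjusted p = 0.191, SE 0.21). Avpr1a, the closely related vasopressin receptor, had 355 and 394 (0.15 on the log2 scale, adjusted p = 0.800, SE 0.32). The Oxtr probes lie 12820 bases apart, at chr6:112637108-112637169 and chr6:112649929-112649988, minus strand, mm7. They are shown because 2 separate stretches of the gene gave like log2 fold changes before normexp correction.
Oxtr probe 1, bases 1–30 of 60: ttgtgaatcagagacgtaatattattggac
Oxtr probe 2, bases 1–60: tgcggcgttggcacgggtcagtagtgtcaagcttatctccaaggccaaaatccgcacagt

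Chrm3, the muscarinic receptor through which acetylcholine contracts smooth muscle, was near background at both probes. At its brighter probe the signal was 24.7, 46.1, 45.5 and 31.2 in control mice 1 to 4 and 41.2, 128, 86.7 and 41.7 in Gen mice 1 to 4. Gen mice 2 and 3 were above all controls, and the probe exceeded background in 1 control and in all 4 Gen-treated mice. The cut-off was unequal: Gen signals of 41.2 and 41.7 counted as above background, while of the control signals of 46.1 and 45.5 at most 1 did. Chrm3 had a log2 fold change of 0.89 (adjusted p = 0.198, SE 0.41, 95% interval -0.05 to 1.83, exact permutation p = 0.171). After normexp background correction the log2 fold change at this probe was 0.28 (limma adjusted p = 0.409). At probe 2 the signal was 9.46, 7.92, 15.2 and 7.89 in control mice 1 to 4 and 27.1, 21.3, 29.4 and 22.7 in Gen mice 1 to 4. All 4 Gen-treated mice were above all 4 controls, and limma called the probe higher (adjusted p = 0.0236).

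The Chrm3 probe 2 result was bounded by background. It exceeded background clearly in no control and in 3 of the 4 Gen-treated mice, and its Gen mean of 24.9 was below 39.8, the mean over the control arrays of the lowest signal that counted as well above background there, so no fold is given. After normexp background correction the log2 difference was 0.02 (adjusted p = 0.931), and with a floor at a signal of 25.8 it was 0.06 (adjusted p = 0.605). Without control replicate 1 the adjusted p was 0.0591, and without Gen replicates 1, 2 and 3 it was 0.0633, 0.0675 and 0.0603. The difference of log2 fold changes between Oxtr and Chrm3, at their brightest probes, was -0.25 (exact permutation p = 0.657). Chrm2, the other muscarinic receptor of smooth muscle, was well above background on no array. The Chrm3 probes are 243196 bases apart, at chr13:9790741-9790800 and chr13:10033937-10033996, minus strand, mm7. They are shown because the probe that was called came from a separate cDNA, far from the other probe.
Chrm3 probe 1, bases 1–60: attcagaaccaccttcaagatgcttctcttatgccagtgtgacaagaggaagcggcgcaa
Chrm3 probe 2, bases 1–30 of 60: ggtttccattagtgtatttcactcatcaga

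**Figure D2:**
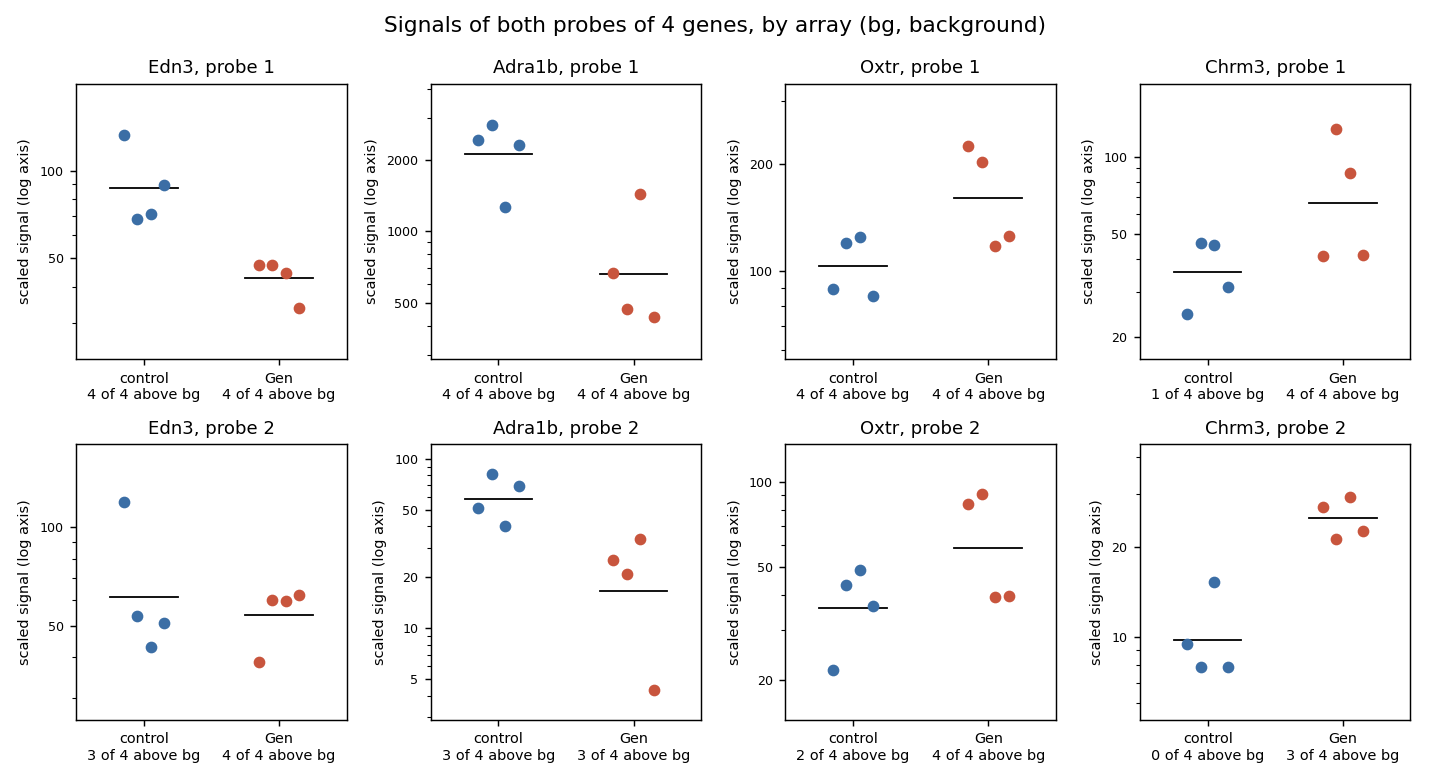
Scaled signal (y axis, log scale) of both probes of Edn3, Adra1b, Oxtr and Chrm3 in 4 control and 4 Gen-treated mice, with lines at the means of the log2 signals and the number of arrays well above background under each group. Both probes of each gene have the same direction, but their sizes differ for Edn3, with a log2 fold change of -1.02 at probe 1 and -0.18 at probe 2. No fold is given for Chrm3 probe 2.

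**Figure D3:**
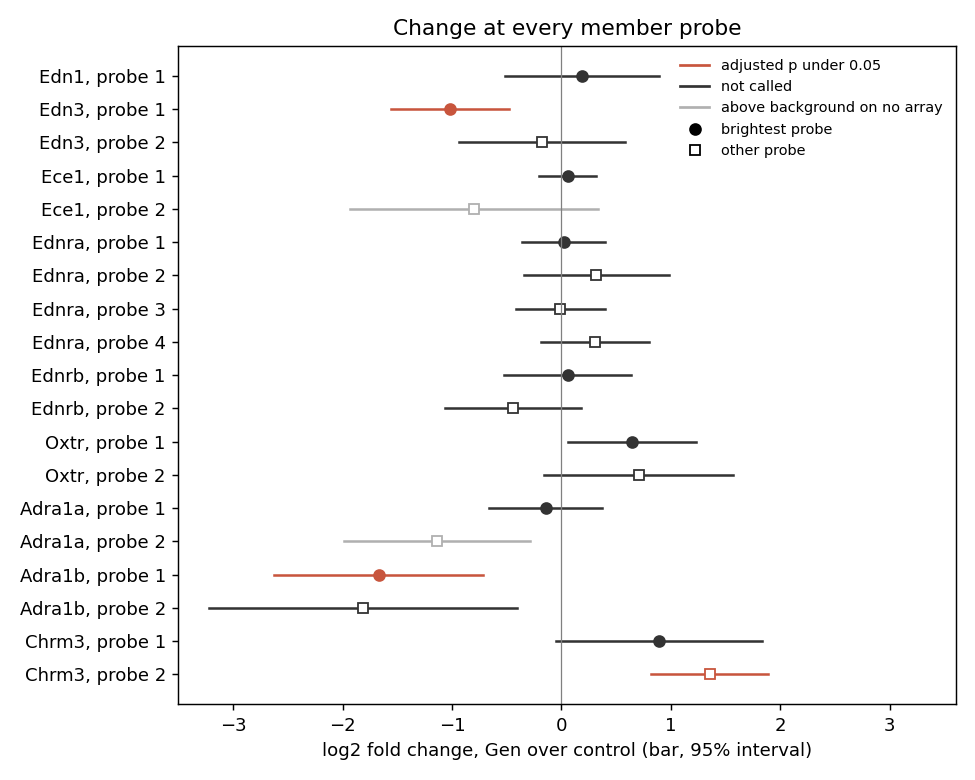
Log2 fold change (x axis, Gen over control) of all 19 probes with the 95% interval from limma. Red marks the 3 probes with an adjusted p under 0.05, and grey the 2 probes well above background on no array, whose fitted values carry no fold.

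The receptors that act on muscle were also read relative to muscle genes on the same array. Of 14 smooth muscle genes, such as Acta2 and Myh11, 13 had a negative log2 fold change and limma called 0, with 3 at an unadjusted p under 0.05. Their mean changed by -0.26 on the log2 scale (exact permutation p = 0.0571), with summed signals of 1859556–2419682 among controls and 1508092–2003969 after Gen. Relative to this mean, Edn3 changed by -0.76, and Oxtr, Chrm3 and Ece1 were higher by 0.90, 1.15 and 0.32 (exact permutation p = 0.0286 for each of the 4, which are among 9 genes tested). In these 4 genes the 4 Gen-treated mice did not overlap the controls. The share of all probes that separate after this subtraction was not computed, so the 4 of 9 cannot be set against it. Before the subtraction 22.5% of all probes did not overlap, and Ece1 overlapped with a log2 fold change of 0.06. Oxtr, which overlapped on its own, kept an exact p of 0.0286 under each alternative except without control replicate 4 (0.0571). Chrm3 had an exact permutation p of 0.0857 with quantile normalization, of 0.114 without control replicate 1, and of 0.0857 without control replicate 2, 3 or 4. With the median of the list in place of its mean, the value was -0.61 for Edn3 (exact permutation p = 0.171) and 0.46 for Ece1 (exact permutation p = 0.0857). With 1 Gen array left out, the exact permutation p of Edn3 was 0.0857 to 0.143, and that of Ece1 was 0.0571, as it also was without control replicate 3.

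For the other genes the values relative to muscle did not pass the test. They were -1.41 for Adra1b (exact permutation p = 0.0571), 0.28 for Ednra (exact permutation p = 0.0571), 0.45 for Edn1, 0.32 for Ednrb and 0.12 for Adra1a (exact permutation p from 0.257 to 0.571). Relative to muscle, Adra1b of control mouse 3 and Gen mouse 3 still overlapped. Genes of vascular endothelium, where Edn1 and Ednrb are at home, had a mean change of 0.14 (exact permutation p = 0.257), with 9 of 10 positive and none called (0 at an unadjusted p under 0.05). Relative to the endothelial mean, Edn3 changed by -1.16 and again did not overlap between the groups (exact permutation p = 0.0286). The other separations seen relative to muscle were not found there, with 0.50 for Oxtr (exact permutation p = 0.143), 0.75 for Chrm3 (exact permutation p = 0.171) and, with the sign turned, -0.081 for Ece1 (exact permutation p = 0.486). Adra1b changed by -1.81 (exact permutation p = 0.0571).

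Further genes of the same pathways were read from lists of 93 genes, 80 of them detected above background throughout the control or the Gen group. Of the 80, 1 was called higher and 1 lower, beside 5.02% of all probes of that kind (2.83% higher and 2.19% lower), and without the dim probes limma called 0, although 12 had an unadjusted p under 0.05. Cd38, an enzyme that is also known to be needed for oxytocin release, rose from 95.8 to 171 (0.84 on the log2 scale, adjusted p = 0.0272, SE 0.20). Its signal was 100, 71.5, 95.2 and 124 in control mice 1 to 4 and 150, 213, 143 and 187 in Gen mice 1 to 4, without overlap. Cacna2d1, a subunit of voltage-gated calcium channels, fell from 2198 to 1685 (-0.38 on the log2 scale, adjusted p = 0.0335, SE 0.10). All 4 Gen-treated mice, at 1632 to 1785, were below the 4 controls, at 2061 to 2327. Without the dim probes the adjusted p was 0.0819 for Cd38 and 0.0785 for Cacna2d1.

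Within the lists, the genes downstream of the receptors moved little on average. Of 25 genes of Gq signalling and calcium release, 12 had a positive log2 fold change, with a median of -0.01 and none called. Of 11 genes of receptor desensitization 7 were positive, with a median of 0.03, and of 18 genes of calcium entry and handling 10 were positive, with a median of 0.01. The 5 other endothelin pathway genes had a median of -0.32 with 1 positive, and the 6 other adrenergic receptors a median of -0.23 with 2 positive, none of them called. The 9 genes of transmitter synthesis, uptake and breakdown had a median of 0.03, with 6 positive and none called, the 2 other muscarinic receptors measured had -0.07 with 1 positive, and the 4 genes of oxytocin and vasopressin had 0.12 with 3 positive. None of these lists was tested as a list.

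**Figure D4:**
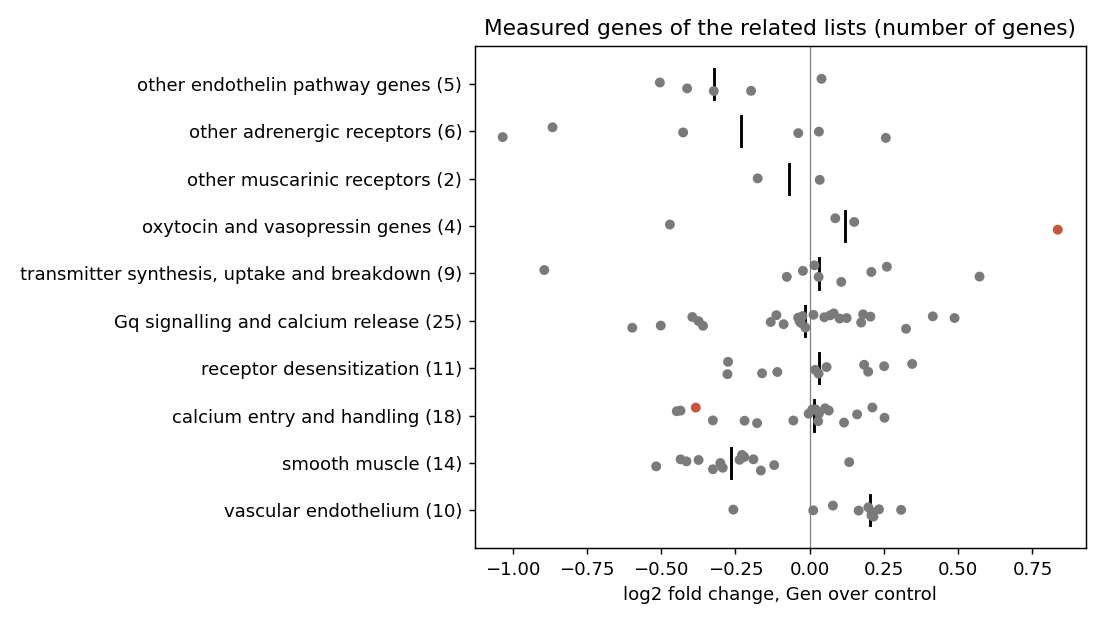
Log2 fold change (x axis, Gen over control) of the measured genes of each pathway list and of the smooth muscle and vascular endothelium lists, 1 point per gene, with a black bar at the list median. Red points are Cd38 and Cacna2d1, the 2 genes with an adjusted p under 0.05, and 13 of the 14 smooth muscle genes lie below 0.

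Genes whose signals followed Edn3 or Adra1b most closely over the 8 arrays were found by the root mean square distance of centred log2 signals, among 14258 genes. Among the nearest to Edn3 probe 1 were Jph4 (0.20), which codes for a junctophilin, and 5930430L01Rik (0.25). The nearest to Adra1b probe 1 were Fbp2 (0.25), an enzyme of gluconeogenesis known from muscle, Veph1 (0.37) and Atp2b2 (0.38), a calcium pump of the plasma membrane. These genes were found by their likeness, so their own differences between the groups are no further evidence. Fbp2 had signals of 2548 and 924 and Atp2b2 16846 and 5037 in controls and Gen-treated mice, and Jph4 had 1562 and 844.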

How the data were processed

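Oviduct RNA of 8 CD-1 mice on GD2 was hybridized to Agilent whole mouse genome arrays (Cy3 only), with 4 control and 4 Gen-treated mice, grouped by the sample labels. The authors deposited the scanner output of Agilent Feature Extraction (version 9.5), whose processed signal is a linear intensity, background-adjusted within each array and not scaled between arrays. Their Rosetta Resolver step follows these files and was not applied. The deposited series table held the same processed intensity as the scanner file of each array, exactly equal in all 45018 spots. The slide of each treatment was its own.

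Control spots (1639 per array) and outlier spots were dropped, log2 signals of 1 probe were averaged, and arrays were scaled to a common 75th percentile. A probe was well above background on an array where at least 50% of its spots were marked so. Groups were compared with limma 3.58.1 (lmFit and eBayes) in R 4.3.3, together with the data.table package (1.17.8) and matplotlib 3.10.9, with Benjamini-Hochberg adjustment over all 41173 probes with values in both groups. No filter on dim probes was applied, since the methods name a filter on signal only after the test. That later filter, which removed probes of low average intensity in both groups, was not applied here either. Probes of low signal, such as Edn3 probe 1, were therefore kept. The brightest probe of a gene, by mean log2 signal over all 8 arrays, stood for it. Single values were tested by exact permutation over 70 labelings. The number of arrays limits the precision. The steps were tested on simulated data.

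Named genes were the 9 members, called list genes without overlap between the groups (at most 4 per list), the family genes Edn2, Adra1d, Avpr1a, Chrm2 and Oxt, and the 3 genes nearest to each called member. Some genes that this rule names, and the list of nerve and Schwann cell markers, are not reported here. The members and lists were chosen with earlier results of these data known. Updated gene names, for the search of like genes and the lists, came from the RefSeq table of GRCm38.p6, by accession for 22951 probes and by name or synonym for 9768, and 8455 kept the name in the files. Sequences are the probes of the array files, and positions are those of the array design (mm7, NCBI build 35). Alternatives were quantile normalization, no scaling, normexp (offset 50), a filter on dim probes by group or blind to group, a floor on signals, no removal of outlier spots, a robust fit with intensity trend, the methods' t-test, a block by replicate number, all probes of a gene averaged, the list median, and each array left out in turn.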

Additional observations from a re-analysis of the deposited data

Results flagged for a closer look

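In 38 groups of 4 arrays (19 probes in each treatment), 2 single values stood apart from the other 3 of their group, where chance gives about 1 in 20 groups. Edn3 probe 2 had a signal of 38.6 on the array of Gen replicate 1, below 59.5–62.2 on the other Gen arrays. Ednra probe 4 had a signal of 31.9 on the same array, below 54.2–55.5 on the other Gen arrays. Neither probe was called with or without that array.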

How the results depend on the processing

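The counts of called member probes, member genes and pathway genes were 3, 2 and 2, and depended on the processing. They were 1, 0 and 0 with quantile normalization (6, 3 and 14 at an unadjusted p under 0.05), 1, 0 and 0 without scaling (7, 4 and 4), and 1, 0 and 0 with normexp (6, 2 and 19). All 3 counts were 0 by limma with the filter on dim probes (3, 3 and 12), the filter blind to group (4, 3 and 12) and the floor (3, 2 and 10), and by the methods' t-test (5, 2 and 10). Over all 41173 probes limma called 6674 in the main fit. It called 178 with quantile normalization, 640 without scaling, 251 with normexp and 25 with the floor. The methods' t-test, here with the same adjustment over all probes, called 0. The paper chose altered array probes by analysis of variance at a p threshold and states no such adjustment, so this 0 is not its result. The filter on dim probes gave 321 of 28966, and the filter blind to group 266 of 29560. With 1 array left out, the counts for members and pathway genes ranged from 0 to 3, from 0 to 2 and from 0 to 2. Over all probes, the fits without Gen replicates 1, 2 and 3 called 3, 2 and 1, and those without another array called 97 to 7130. Keeping outlier spots changed none of the 3 counts for members and pathway genes, and the robust fit with intensity trend gave 3, 2 and 3. Without scaling, the median of bright probes moved by 0.24 on the log2 scale.

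The paper compared Gen-treated mice with control littermates, but the replicate labels name no litters. Deviations from the group means of same-numbered arrays had correlations of -0.08, 0.11, -0.02 and -0.18 over 24920 probes. Arrays of different numbers ranged from -0.23 (control 1 and Gen 2) to 0.38 (control 1 and Gen 4). These values cannot decide whether mice were paired, since litters may have been numbered otherwise. With the replicate block all 3 counts were 0 by limma (6, 3 and 6 at an unadjusted p under 0.05), with an adjusted p of 0.0791 for Edn3 and 0.117 for Adra1b. Of all 41173 probes, limma called 1 with this block.

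The difference between Ednra and Ednrb was 0.04 with quantile normalization and ranged from -0.20 to 0.16 with arrays left out, and that between Oxtr and Chrm3 was 0.014 with normexp and ranged from -0.64 to 0.030. The range was -0.051 to 0.28 for Ednra against Adra1a, -0.072 to 0.43 for Edn1, -0.087 to 0.11 for Ednra, -0.13 to 0.23 for Ednrb and -0.25 to 0.066 for Adra1a. With normexp Ednra was -0.072 and Ednrb -0.042, and without scaling Adra1a was 0.10. With the mean of all probes Ece1 was -0.37 and Ednrb -0.19, and relative to muscle Adra1a was -0.061 with quantile normalization and -0.037 with normexp. That mean of all probes gave adjusted p of 0.037 for Adra1a and 0.024 for Chrm3, each of which has a probe at or near background. The causes were not tested. Signal near background limits Chrm3, Oxtr probe 2, Edn3 and Adra1b probe 2.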

Other observations

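Other cell types of the oviduct were read from marker lists. Of 7 macrophage genes, 6 had a positive log2 fold change, with a median of 0.45 and summed signals that ranged over 50609–81887 among controls and 64712–85515 after Gen. Emr1, the F4/80 antigen, rose from 6615 to 10439 (0.66 on the log2 scale, adjusted p = 0.0246, SE 0.15), and Itgam, an integrin of myeloid cells, from 398 to 666 (0.74 on the log2 scale, SE 0.13, adjusted p = 0.0236, and 0.0412 without the dim probes). Cldn3, a tight junction protein, fell from 68444 to 43056 (-0.67 on the log2 scale, adjusted p = 0.0287, SE 0.17), 1 of 7 secretory epithelium genes, whose median was -0.17. Without the dim probes the adjusted p was 0.0699 for Emr1 and 0.0834 for Cldn3. Of the lists of ciliated epithelium (10 genes), stromal fibroblasts (7) and mast cells (5 measured), 0 genes were called by limma and 0 had an unadjusted p under 0.05, with medians of -0.09, -0.06 and -0.08.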
